A study of Mus musculus with 18 samples.

Results

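The polysome experiment of this study gave each mRNA isoform of mouse myotubes 1 value of translation efficiency, named TE in the authors' table. An isoform is defined there by its 5′ end and its 3′ end, both read from the same molecule by TIF-seq2. The isoforms described here lie on nuclear chromosomes, have a coverage of at least 30, carry a sequence for both untranslated regions (UTRs) and have a TE above 0. These conditions were met by 3510 of the 7123 isoforms of the polysome table, out of 13759 isoform rows in both tables of the series, and they held 91.8% of the polysome coverage of 1601919. The 5′ UTR is called the leader below and the 3′ UTR the trailer.

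The cells were primary myoblasts from gastrocnemius muscle of female wild-type mice, which had fused into myotubes over 24 h in 1 µM SCH772984, an inhibitor of the ERK kinases. All polysome samples had this treatment, and all received 100 µg/ml cycloheximide for 5 min, which holds ribosomes on the mRNA. Lysates were separated on sucrose gradients of 10 to 50%. The free fraction held mRNA without ribosomes, the light one mRNA with 2 to 5 and the heavy one mRNA with at least 6. Each of these groups had 2 mice, which made 6 libraries. No untreated or undifferentiated group was part of the polysome experiment.

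In a sucrose gradient an mRNA travels further the more ribosomes it carries, so the share of an mRNA in heavy fractions is used as a measure of how actively it is translated. Ribosomes are recruited near the 5′ end and scan the leader for a start codon, and AUG codons in the leader can divert them before the main reading frame. The trailer holds most binding sites of microRNAs and RNA-binding proteins, and alternative poly(A) sites decide how much of it an mRNA keeps. In muscle, very abundant mRNAs for sarcomere proteins and metabolic enzymes make up much of what is translated.

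No source used here gives the formula or the unit of TE, or says whether it was scaled by transcript length. If it was, a longer leader or trailer lowers TE by that step alone, and this was not tested. Coverage and TE are pooled over both mice and all 3 fractions, and the number of columns that hold a single library was 0. No difference in TE could therefore be set against the spread between mice, and no test was made. Differences between isoforms below are descriptions, set beside the differences between near-identical isoforms of the same table. Coverage per isoform ranged from 30 to 50264, with a median of 99 and quartiles of 49 and 295, and the depth of a single library is unknown.

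The files pair no isoform with a gene. Names were found by a shared stretch of 20 bases between the leader and a RefSeq promoter window of build GRCm38.p6 on the same chromosome and strand, and were carried along shared ends. This named 1880 isoforms (53.6%) of 1101 genes, 1241 of them directly. In the direct matches the genomic span of the isoform over the gene's length had a median of 0.989. The cell label was checked with these names. Of 20 myotube markers, 14 were found with a coverage of 142808, among them desmin (Des), skeletal actin (Acta1) and the troponins Tnni1 and Tnnt1. No isoform was named for any of the fibroblast, endothelial, macrophage and adipocyte markers, and those of proliferating cells had a summed coverage of 18 in 1 gene. Only genes with a promoter window could be found, such as 4 of the 8 fibroblast and 8 of the 9 proliferation markers, so an unnamed marker is not thereby absent.

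The first bases of the most covered leaders are shown because they hold the start-site classes that the values below are sorted by. The first base is in capitals, or the first 5 bases where they form a terminal oligopyrimidine (TOP) start, which is C followed by 4 pyrimidines. Sequences are as deposited, as DNA, 5′ to 3′, and positions are of build GRCm39.
Des, leader of 86 nt: Acccatcttcacatccactc
Acta1, leader of 72 nt: Acacggacgtgaagcctcac
Rplp2, leader of 153 nt: CTTTCgccgccggacgccgc
Uqcrc1, leader of 18 nt: Actgacggaagttagaag
Tnni1, leader of 75 nt: Actctgcagtctgtggtgag
Tpm2, leader of 110 nt: Acagtccctcttggtcctcc
Rpsa, leader of 702 nt: CTTTCgcgctacccggggac

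Des, the intermediate filament protein of muscle, had the most covered isoform (coverage 50264, chr1:75336976-75344357, plus strand) and a TE of 0.000403, at percentile 13.9 of all members. Acta1 followed with a coverage of 28298 and a TE of 0.000633. The remaining named isoforms among the 10 most covered were Rplp2, a ribosomal stalk protein, with a TE of 0.00128, Uqcrc1, a core subunit of respiratory complex III, with 0.00156, Tnni1, slow troponin I, with 0.00104, Tpm2, a tropomyosin, with 0.000831, and Rpsa, a protein of the small ribosomal subunit, with 0.000457. An unnamed isoform at chr10:80644332-80649331 had the highest TE of the 10, 0.00223. The most covered isoforms thus lay on both sides of the median.

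Across the 3510 isoforms the median TE was 0.000743 and the quartiles were 0.000511 and 0.00108. The 5th and 95th percentiles, 0.000286 and 0.00174, were 6.08-fold apart. The SD of log2 TE was 0.81, and 79.5% of isoforms lay within a factor of 2 of the median. In any 2 isoforms drawn from the table the higher TE was, at the median, 1.69 times the lower. The lowest TE, 1.95e-05, belonged to an isoform of coverage 46 at chr2:156563040-156604878. Its listed leader of 49855 nt is longer than its genomic span of 41839 bases, and it was the only member of that kind.

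**Figure D1:**
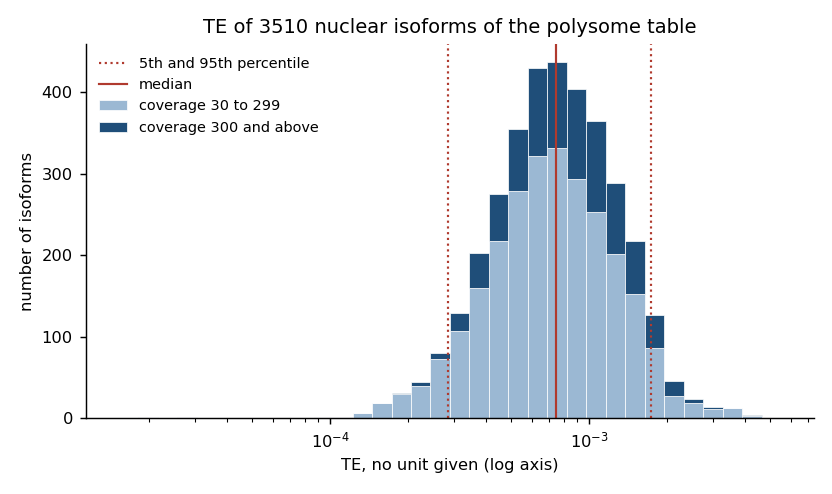
Number of isoforms (vertical axis) by TE (horizontal log axis, no unit given), with isoforms of coverage 300 and above stacked in dark blue on the others. The solid line is the median, 0.000743, and the dotted lines are the 5th and 95th percentiles, 0.000286 and 0.00174; the distribution has 1 peak.

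TE was higher in better covered isoforms, with a Spearman's rho of 0.12. The class of 1000 or more stood 0.35 above that of 60 to 119 on the log2 scale. The median was 0.000717 in 1152 isoforms with a coverage of 30 to 59, 0.00068 in 783 with 60 to 119, 0.000749 in 706 with 120 to 299, 0.000814 in 556 with 300 to 999 and 0.000866 in 313 with 1000 or more. The spread narrowed a little, from an SD of log2 TE of 0.86 in the lowest class to 0.72 in the highest. Isoforms just under the coverage minimum, at 25 to 29, had a median of 0.000731, and those just above it, at 30 to 34, a median of 0.000713. Better covered isoforms also had shorter trailers, with a median of 227 nt at 1000 or more against 314 nt at 30 to 59. With log2 TE corrected for the lengths of leader and trailer, the most covered class stood 0.13 above all members on the log2 scale, against 0.22 before.

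The isoforms with the highest TE at a coverage of 300 or more had short trailers. The highest, 0.00398, was an unnamed isoform at chr8:111573670-111608854, plus strand, with a leader of 13 nt and a listed trailer of 1 nt. Next came 2 unnamed isoforms, at chr14:47611374-47623255 with 0.00323 and at chr5:130040346-130053186 with 0.00317. Sct, which encodes the hormone secretin, followed with 0.00278 at a coverage of 4493. Dnpep, an aspartyl aminopeptidase, had 0.00271, Emp3, a small membrane protein, 0.00269, and Ndufv1, a subunit of respiratory complex I, 0.00254. Trailers of these 8 highest isoforms, the unnamed one at chr2:121279858-121281533 with 0.00268 included, were 118 nt or shorter.

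The 8 lowest had trailers of 217 to 3104 nt, 4 of them above 1200 nt. The lowest TE at this coverage, 0.000188, was that of an unnamed isoform at chr5:114518892-114559225 with a trailer of 1495 nt. Its first 50 leader bases had a predicted folding energy of -35.5 kcal/mol, the lowest of all members. A Tcf25 isoform with a trailer of 3104 nt had a TE of 0.000206. The shorter of the well covered isoforms of Eef2, the elongation factor that moves the ribosome along the mRNA, had 0.000207 with a trailer of 273 nt, and Pskh1, a protein kinase, had 0.000239 with a trailer of 1833 nt. Traf7, a ubiquitin ligase, had 0.000246 with 494 nt, and an isoform named Mad1l1 only through a shared end had 0.000223 with 418 nt. Unnamed isoforms at chr3:88243604-88269644 and chr1:172102051-172125566 had 0.000222 with 1229 nt and 0.000245 with 217 nt.

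Isoforms that share an end have similar but not equal TE. The members had 2439 different 3′ ends and 3213 different 5′ ends. At 582 of the 3′ ends there were 2 or more isoforms, 1653 in all and up to 22 at 1 end, which differ in where they start. Within these groups the SD of log2 TE was 0.50, against 0.66 between groups, so that 36.7% of the variance lay within groups. The highest TE of a group was 1.39 times its lowest at the median (quartiles 1.17 and 1.89), and 124 groups (21.3%) spanned more than 2-fold. The largest range, 62.8-fold, rests on the isoform with the leader longer than its span. Without it the largest was 9.13-fold, 34.7% of the variance lay within groups and the median range stayed at 1.39.

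At 255 5′ ends there were 2 or more isoforms, 552 in all, which differ in where they end. Their SD of log2 TE was 0.45 within and 0.58 between groups, with 37.0% of the variance within. The median range was 1.32-fold, and 32 groups (12.5%) spanned more than 2-fold. In better covered isoforms the share within groups was smaller. At a coverage of at least 300 it was 26.1% in 54 groups with a shared 3′ end and 25% in 23 groups with a shared 5′ end.

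Correction for UTR lengths acted differently on these kinds of group. With log2 TE corrected for leader and trailer length over all members, the SD within shared 5′ ends went from 0.45 to 0.29, and 20.4% of the variance remained within groups. Within shared 3′ ends it went from 0.50 to 0.47, and 39.6% remained within. Inside groups with a shared 5′ end, each doubling of the trailer came with a log2 TE 0.23 lower, close to the 0.22 lower between groups. Inside groups with a shared 3′ end, each doubling of the leader came with a log2 TE 0.13 lower, against 0.17 lower between groups. These slopes are over isoforms that share libraries, and their errors between mice are unknown.

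The closer the other ends of a pair lay, the more alike their TE. For the 2 most covered isoforms of each group with a shared 3′ end, the higher TE was 1.15 times the lower at the median where the 5′ ends were 14 to 19 bases apart (15 groups). It was 1.18 at 20 to 49 bases, 1.26 at 50 to 99, 1.32 at 100 to 199 and 1.48 at 200 to 999, and 1.45 beyond that. With a shared 5′ end the median was 1.10 where the 3′ ends were under 50 bases apart (30 groups), 1.11 at 50 to 199, 1.20 at 200 to 399, 1.39 at 400 to 799 and 1.64 at 800 to 1999. From 2000 bases on it was 1.51 in 25 groups. The values at the shortest distances are the nearest thing in the table to a technical spread. Those molecules still differ in sequence, by 14 to 19 bases at the 5′ end or 15 to 49 at the 3′ end. Both isoforms of a pair come from the same pooled libraries, so these values hold no spread between libraries or mice.

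**Figure D2:**
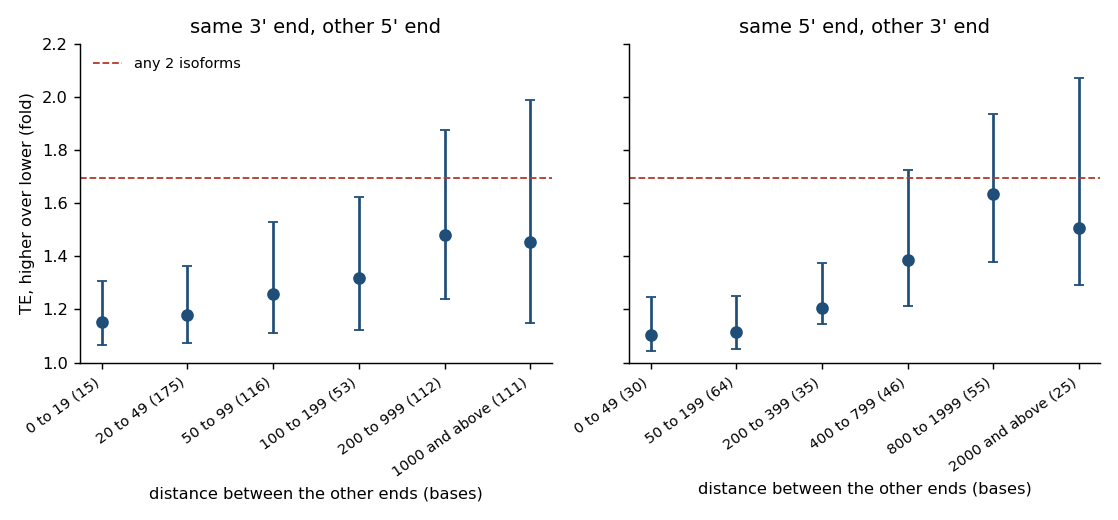
Higher over lower TE (fold, vertical axis) of the 2 most covered isoforms of a group, by the distance in bases between the ends they do not share, for shared 3′ ends (left) and shared 5′ ends (right). Points are medians, bars are quartiles, numbers in brackets count groups, and the dashed line is the median for any 2 isoforms, 1.69; the medians go from 1.15 to 1.48 on the left and from 1.10 to 1.64 on the right before the last class.

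The isoform with the longer genomic span had the lower TE in 198 of 255 groups with a shared 5′ end (77.6%), and in 53 of 55 where the 3′ ends were 800 to 1999 bases apart. With a shared 3′ end it also had the lower TE more often than not, in 336 of 582 groups (57.7%). Coverage did not order the pairs: the more covered isoform had the higher TE in 51.4% of groups with a shared 3′ end and in 52.9% of those with a shared 5′ end.

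The starts of the leaders are shown for the 5 widest pairs with a shared 3′ end and a coverage of at least 300 in both isoforms. Each pair shares its 3′ end and differs in its start. Isoforms are defined by their ends alone, so differences between those ends, such as in splicing, are not seen. The lower TE comes first in each pair, and capitals are as above.
Unnamed at chr10:80644332-80648649, TE 0.000681: Agttggtccaggctgctggg
Unnamed at chr10:80644332-80649331, TE 0.00223: Atcttgtctctcaagcccag
Dnpep, leader of 128 nt, TE 0.00101: CTTTCcgatcctgtactcca
Dnpep, leader of 85 nt, TE 0.00271: Gaaggcgaggcctgatccgg
Apbb1, leader of 141 nt, TE 0.000317: CTCTTgaggcgcagccacgg
Apbb1, leader of 170 nt, TE 0.000837: Atgttgtgatggagaagctg
Unnamed at chr11:114742659-114759921, TE 0.000645: Agaaactccgatcgcctttc
Unnamed at chr11:114741977-114759921, TE 0.0016: Agagtcagcaacaacgtggc
Emp3, leader of 92 nt, TE 0.00111: Atatggagacccacacggcc
Emp3, leader of 155 nt, TE 0.00269: Aactctgacttcttcagcaa

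The widest pair, which ends at position 80644332 of chromosome 10, had a 3.27-fold range. The isoform with a leader of 403 nt and a coverage of 307 had 0.000681. That with a leader of 124 nt and a coverage of 14873 had 0.00223. The isoform with the shorter leader starts further out, so these leaders differ in more than the start position. In Dnpep the isoform with the TOP start and the longer leader had the lower TE, with a 2.67-fold range at coverages of 898 and 686. In Apbb1, an adaptor protein of the amyloid precursor, the isoform with the TOP start again had the lower TE. Here the isoform with the higher TE had the longer leader, with 5 upstream AUGs against 0 in the other. In Emp3 and in the unnamed pair on chromosome 11 the longer leader also had the higher TE, with ranges of 2.44-fold and 2.48-fold. The longer leader thus had the higher TE in 3 of these 5 pairs. The median over all 54 such groups was 1.28-fold.

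In the narrowest pairs a different start came with nearly the same TE. Slow troponin T (Tnnt1) had 0.00128 with a leader of 76 nt and 0.00132 with one of 56 nt. At chr7:18990857-19005742 an isoform with a leader of 299 nt had 0.000474, and one that starts inside it with a leader of 64 nt had 0.000454. At chr9:58195885-58220480 the leaders of 311 and 151 nt came with 0.000448 and 0.000428. The narrowest of the 5 pairs, at position 87126649 of chromosome 1, had 0.000625 and 0.000633, and the fifth, at position 90876074 of chromosome 2, 0.000599 and 0.000629.

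Genes with many start sites kept their own range of TE. At the 3′ end of Eef2 (position 81018329 of chromosome 10) there were 19 isoforms. The annotated one, with a coverage of 4590, had a TE of 0.000258, and the 18 that start further inside had 0.000138 to 0.000246, all below it and all below the overall median. Their coverage was 30 to 183. An unnamed end at position 4911251 of chromosome 19 joined 22 isoforms with TE from 0.000162 to 0.00033 and leaders of 1 to 354 nt, and its annotated isoform had 0.000299. The 11 isoforms of Des lay between 0.000301 and 0.00043 and the 11 of Acta1 between 0.000308 and 0.000633.

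Other genes with many starts were wider. Aldoa, the glycolytic aldolase, had 19 isoforms at 1 end with TE from 0.000389 to 0.0014, a 3.58-fold range. Its most covered start gave 0.000627 with a leader of 109 nt, and starts with leaders of 66 and 171 nt gave 0.000996 and 0.000759. Pkm, pyruvate kinase, reached 8.15-fold, from 0.000278 to 0.00226, and Tecr, an enzyme of fatty acid elongation, 9.13-fold, from 0.000234 to 0.00214. In both genes the isoforms at the extremes had coverages of 37 to 203, and the most covered ones had 0.0005 (Pkm, coverage 8317) and 0.00106 (Tecr, coverage 6885).

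**Figure D3:**
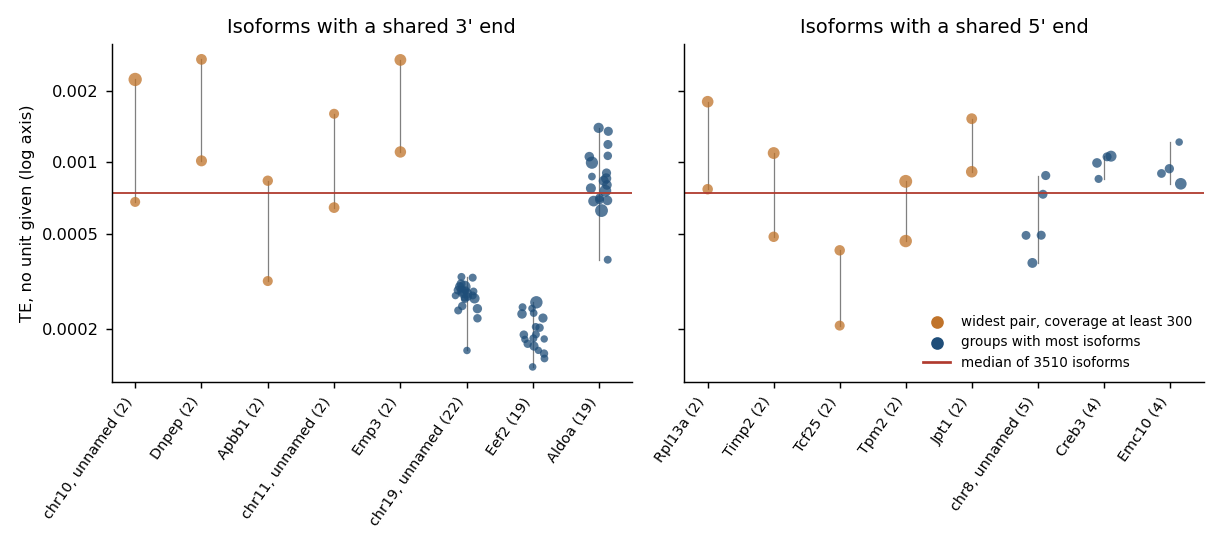
TE (vertical log axis, no unit given) of single isoforms that share a 3′ end (left) or a 5′ end (right), with larger points for higher coverage and the number of isoforms in brackets. Orange marks the widest pairs at a coverage of at least 300, blue the groups with most isoforms, and the line the median of 0.000743; the 19 Eef2 isoforms lie at 0.000138 to 0.000258 and the 19 Aldoa isoforms at 0.000389 to 0.0014.

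The last bases of the trailers are shown for the 5 widest pairs with a shared 5′ end. Each pair shares its start and differs in its 3′ end. Capitals mark a poly(A) hexamer, AATAAA or ATTAAA, searched on the transcribed strand. The lower TE comes first.
Rpl13a, trailer of 381 nt, TE 0.000771: gattttatgtgctAATAAAttatttgactt
Rpl13a, trailer of 23 nt, TE 0.0018: acccAATAAAgactgtttgcctc
Timp2, trailer of 2636 nt, TE 0.000486: caatggacAATAAAccatattatcaaagag
Timp2, trailer of 108 nt, TE 0.00109: gaaacagcatgAATAAAacatcaatcatcc
Tcf25, trailer of 3104 nt, TE 0.000206: aagttcacaagaaatgaaagactttgaaac
Tcf25, trailer of 99 nt, TE 0.000426: ccagttccgagtagaaatgctgaccatgcc
Tpm2, trailer of 1209 nt, TE 0.000466: tcctcgggccAATAAActgatgttactggc
Tpm2, trailer of 238 nt, TE 0.000831: actacttAATAAActctgaacttggtctcc
Jpt1, trailer of 796 nt, TE 0.000912: ttgcttaaagtaaacaatacccaccttttg
Jpt1, trailer of 119 nt, TE 0.00152: ggattggtttcATTAAAggagaagcacttt

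The longer Timp2 isoform was named through the start it shares. In all 5 of these pairs the shorter trailer had the higher TE. The Tcf25 isoforms end at positions 124130549 and 124128069, and their trailers differ in length by more than that distance. That pair therefore differs in more than the position of its 3′ end. The range was 2.33-fold in Rpl13a, a protein of the large ribosomal subunit, 2.25-fold in Timp2, an inhibitor of matrix metalloproteinases, and 2.07-fold in Tcf25. It was 1.78-fold in Tpm2 and 1.67-fold in Jpt1, a microtubule-associated protein. The hexamers did not sort the pairs: in Rpl13a, Timp2 and Tpm2 both ends carried AATAAA, in Tcf25 neither end carried a hexamer in these bases, and in Jpt1 only the shorter trailer did. The median over all 23 such groups was 1.24-fold. Tpm2 is the best covered of them, with coverages of 4798 and 8897.

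Where 5′ ends were joined to more than 2 poly(A) sites, the order was not the same in each. At position 23629026 of chromosome 8, 5 isoforms had trailers of 303, 391, 862, 1033 and 2242 nt and TE of 0.00088, 0.000734, 0.000493, 0.000493 and 0.000377. TE there was lower with each longer trailer, though at 862 and 1033 nt the values are the same to 3 digits. Emc10, a subunit of a membrane protein insertase, had 0.00122 with 396 nt and 0.00094, 0.000897 and 0.000812 with 886, 933 and 847 nt. In Creb3, a transcription factor held in the endoplasmic reticulum membrane, trailers of 67 to 263 nt came with 0.000851 to 0.00106 in no order of length. Mrpl12, a mitochondrial ribosomal protein, had the narrowest pair, 0.000974 with 262 nt and 0.000941 with 319 nt. Chrng, the fetal gamma subunit of the acetylcholine receptor, had 0.00068 with 146 nt, and an isoform without a name of its own that shares its start had 0.000713 with 301 nt.

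Isoforms of longer genomic span had lower TE. The median was 0.00105 in 89 isoforms of up to 1000 bases and 0.000986, 0.000866, 0.000777, 0.000712 and 0.000604 in the next classes, each up to double the length of the one before. It was 0.00056 in 204 isoforms of 32001 to 64000 bases and 0.000567 in 101 longer ones. Across isoforms Spearman's rho was -0.269, a description over 3510 isoforms that share libraries and, in part, ends. Span went with longer trailers, from a median of 139 nt in the shortest class to 521 nt at 32001 to 64000 bases. With log2 TE corrected for both UTR lengths rho was -0.135, and the difference between the longest and the shortest class went from -0.89 to -0.46 on the log2 scale.

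Within classes of trailer length the span still sorted TE, less so where trailers were long. With trailers of up to 150 nt the median was 0.0012 at spans of 1001 to 2000 bases and 0.000833 at 16001 to 32000. With trailers of 401 to 1200 nt it was 0.000636 and 0.000615 in the same span classes. It was 0.00052 at 32001 to 64000 bases, against 0.000686 there with trailers of up to 150 nt, and 0.000604 above 64000 bases. With trailers above 1200 nt it was 0.00044 at 4001 to 8000 bases and 0.000456 at 32001 to 64000. Inside groups with a shared 3′ end a doubling of the span, which there means an earlier start, came with a log2 TE 0.012 higher.

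TE was lowest with trailers above 1200 nt, in each leader class with at least 20 such isoforms. The difference between leader classes was smaller with longer trailers. With a leader of up to 50 nt and a trailer of up to 150 nt the median TE of 298 isoforms was 0.00121. With the same trailers and a leader above 400 nt it was 0.000615 in 70 isoforms. With the short leader and a trailer above 1200 nt it was 0.000476 in 54 isoforms. With trailers of 401 to 1200 nt it was 0.000697 with leaders of up to 50 nt and 0.000493 with leaders above 400 nt. With trailers above 1200 nt it was 0.000409 with leaders of 51 to 150 nt. Leaders of 151 to 400 nt with trailers above 1200 nt had 0.000405 in 85 isoforms, the lowest of the 15 combinations with at least 20 isoforms. Fewer than 20 isoforms had both a leader above 400 nt and a trailer above 1200 nt.

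**Figure D4:**
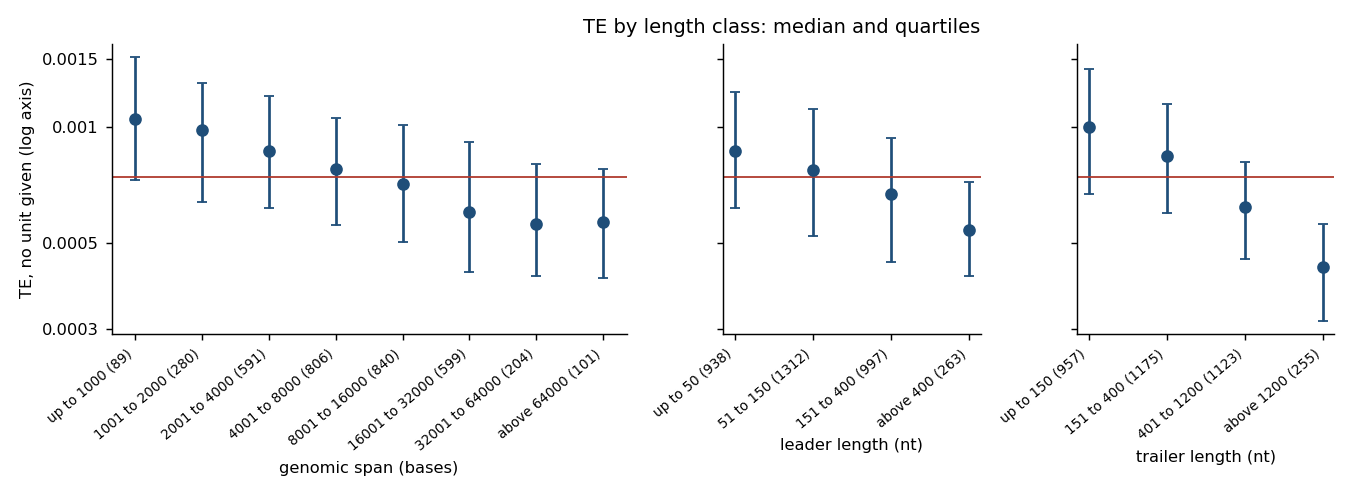
Median TE (points; vertical log axis, no unit given) and quartiles (bars) by class of genomic span in bases, leader length in nt and trailer length in nt, with the number of isoforms in brackets and a line at the overall median of 0.000743. Medians go from 0.00105 to 0.000567 over span, from 0.000867 to 0.00054 over leader length and from 0.000999 to 0.000433 over trailer length.

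Leader length had a rho of -0.261 with TE, larger in size than that of any base share or folding energy of the leader. Leaders here and below are as listed, and they include those of isoforms that start inside the annotated transcript. The leader began with A in 2161 isoforms, G in 785, C in 474 and T in 90, and the median TE was 0.000752, 0.000721, 0.000735 and 0.000714. TOP starts, which mark mRNAs of the translation machinery, were found in 216 leaders (6.15%), with a median of 0.000785 against 0.00074 in the others. These isoforms had short trailers, with a median of 149 nt against 316 nt. With log2 TE corrected for both lengths they stood 0.20 below all members on the log2 scale, and leaders that begin with C stood 0.18 below. The correction itself left all trailers under 40 nt at -0.30 and those of up to 150 nt at -0.060. The part of this in the TOP and C values was not tested.

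Leaders that fold more tightly had lower TE. The predicted energy of the first 50 bases had a rho of 0.149 with TE over 2595 isoforms with at least that many, and the last 50 bases 0.0973. In the 25% of isoforms with the most stable first 50 bases, from -35.5 to -17.5 kcal/mol, the median TE was 0.000625, and in the 25% with the least stable it was 0.000768. The GC share of the first 30 bases had a rho of -0.118, and the share of T over the whole leader one of 0.118. After correction for both lengths these values were 0.125 for the first 50 bases, -0.0923 for GC and 0.105 for T. The base 3 positions before the main start codon, a purine in most efficient start contexts, gave medians of 0.000767 for A, 0.000732 for G, 0.000703 for T and 0.000676 for C.

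Upstream AUGs are shown in 10 bases each because their context sorts TE. A strong context has a purine 3 bases before the AUG and a G right after it, and these positions and the AUG are in capitals. Each isoform has 1 upstream AUG, and they are the 4 most covered of each kind with 6 or more bases before it.
Ankrd2, strong, TE 0.00109: acaGtcATGG
Unnamed on chromosome 6, strong, TE 0.000598: aaaAcaATGG
Ube2s, strong, TE 0.000985: gaaGtcATGG
Mvk, strong, TE 0.000595: tctGatATGG
Unnamed on chromosome 2, other, TE 0.000828: ggaCacATGC
Tecr, other, TE 0.00106: ttgAtcATGC
Unnamed on chromosome 7, other, TE 0.000924: gtgAccATGA
Unnamed on chromosome 11, other, TE 0.000594: agcAgtATGC

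Isoforms with any upstream AUG in a strong context had a median TE of 0.000549 (525 isoforms), those with upstream AUGs in other contexts only 0.000669 (875), and those with none 0.000821 (2110). Their median leaders were 269, 192 and 65 nt. The classes include 576 isoforms that start inside the annotated transcript and 149 that also end before it. The listed leader of such an isoform need not end at the gene's annotated start codon. The part of these isoforms in the values was not tested. After correction for both lengths the strong class stood 0.25 below all members on the log2 scale and the other class 0.042 below. Among the 649 leaders with exactly 1 upstream AUG the medians were 0.000586 in 150 with a strong context and 0.000703 in 499 with another, whose median leaders were 162 and 137 nt.

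Where the only upstream AUG lay also sorted TE. With it under 30 bases before the main start codon the median was 0.000806 in 151 isoforms, at 30 to 99 bases 0.000599 in 274, and at 100 or more bases 0.000668 in 224. The median leaders of these classes were 54, 115 and 220 nt. If its reading frame had a stop codon inside the leader the median was 0.000609, and if it ran on in another frame past the start codon it was 0.000738. In 39 isoforms it was in frame with the main start codon without a stop, as in Ankrd2, a muscle ankyrin repeat protein. Their median was 0.00083, beside 0.000821 in leaders without an upstream AUG. Over all 74 isoforms with open upstream AUGs in frame only, of any number, the median was 0.000717. That was a log2 difference of -0.20 from leaders without one, and -0.14 after correction for both lengths. Among isoforms with 1 upstream AUG, median leaders were 182 nt in the closed, 89 nt in the out-of-frame and 87 nt in the in-frame class. After correction for both lengths these classes stood -0.041, 0.021 and 0.11 from all such isoforms on the log2 scale.

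The make-up of the trailer had a rho with TE smaller in size than that of its length, -0.439. The share of G had a rho of -0.196 with TE and that of C one of -0.0223. The shares of A and T had 0.0933 and 0.0979. After correction for both lengths these were -0.0741, 0.0486, -0.0602 and 0.0761. The number of ATTTA stretches in the trailer, which goes up with its length, had a rho of -0.203, and -0.0549 after the correction. The hexamer AATAAA was found in the last 40 bases of 2276 trailers (64.8%), ATTAAA without it in 488 (13.9%) and neither in 634 (18.1%), with 112 trailers shorter than that window. Median TE was 0.000742, 0.000734 and 0.000722 in the first 3 kinds. With trailers of up to 150 nt it was 0.00102 with AATAAA and 0.000835 with neither. With longer trailers of 151 to 400 nt it was 0.000833 and 0.000851.

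The base after the stop codon, which influences how efficiently translation ends, gave medians of 0.000794 for A, 0.000736 for G, 0.000735 for C and 0.000686 for T. In trailers of 151 to 400 nt the same bases gave 0.000918, 0.000812, 0.000863 and 0.000781. In trailers of 401 to 1200 nt all 4 lay between 0.000609 and 0.00064.

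The authors' class of each isoform states whether its ends are annotated. Isoforms with annotated ends (2186) had a median TE of 0.000752. Those with a shortened 3′ end (424) had 0.000787, with an extended 3′ end (84) 0.000691 and with an extended 5′ end (76) 0.000716. Isoforms that start inside the annotated transcript (576) had 0.000653, and those that also end before it (149) had 0.000742. After correction for both UTR lengths the inside starts stood 0.15 below all members on the log2 scale and those new at both ends 0.23 below. Relative to annotated isoforms, the sign changed with this correction for both kinds of new 3′ end, from -0.12 to 0.032 for extended and from 0.066 to -0.045 for shortened ones.

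Among inside starts the low values were those of starts far inside. With the 5′ end more than 500 bases inside the annotated one the median was 0.000581 in 346 isoforms, and at 101 to 500 bases inside it was 0.000777 in 387. It was 0.000779 in 1089 isoforms within 10 bases of the annotated start, 0.000799 in 429 that start 11 to 50 bases outside and 0.000717 in 164 further out. The 346 isoforms had only 157 different 3′ ends and a median coverage of 60.5, against 128 within 10 bases of the annotated start. The groups at Eef2 and chromosome 19 hold many of them, so they are not independent. Of the 3′ ends, those 101 to 500 bases inside the annotated one had the highest median, 0.000864 in 241 isoforms, with a median trailer of 180 nt.

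Groups of genes were compared by the most covered isoform of each named gene, over 1101 genes with a median TE of 0.000781. Subunits of the respiratory chain and ATP synthase encoded in the nucleus had the highest values. Of 31 named genes 29 lay above that median, and their own median was 0.00141. Cox6b1, a subunit of cytochrome c oxidase, had 0.00234, Atp5k, of the ATP synthase, 0.00228, and the complex I subunits Ndufv1, Ndufa3 and Ndufs7 had 0.00254, 0.00195 and 0.00141. The 2 below it were Atp5b with 0.000627 and Atp5c1 with 0.000522. With log2 TE corrected for both UTR lengths the list stood 0.43 above all named genes, against 0.86 before.

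Ribosomal proteins had a median of 0.00119 over 30 named genes, 25 of them above that of all named genes. Fau had 0.00212, Rpl37a 0.00195, Rpl10a 0.00184 and Rpl13a 0.0018. Rplp0, with a leader of 256 nt and 3 upstream AUGs, and Rpsa, with a leader of 702 nt and 9, had 0.000475 and 0.000457. Another Rplp0 isoform, with a leader of 103 nt and 1 upstream AUG, had nearly the same TE, 0.000495. The 9 isoforms of Rpsa had 0.000284 to 0.000692, the highest with a leader of 9 nt and no upstream AUG. Whether these leaders bear on TE was not tested. The median leader and trailer of the list were 42.5 and 43 nt, and after correction for both lengths the list stood 0.024 above all named genes on the log2 scale. Over all members the correction left trailers under 40 nt at -0.30, and its part in the list's value was not tested. Proteasome and ubiquitin genes also had a median of 0.00119, with 9 of 11 above, such as the core subunit Psmb5 with 0.0019. Uba1, the ubiquitin-activating enzyme, had 0.00038 and Ubb, a ubiquitin gene, 0.00065. After the correction that list stood 0.072 above. Ribosomal protein and ubiquitin genes have near-identical copies elsewhere in the genome, and no source used here says how the authors assigned such reads.

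The contractile apparatus spanned a wide range, with 14 of 22 genes above the median of all named genes and a median of 0.000835. The 3 highest were troponins, Tnnt2 with 0.00211, Tnnc1 with 0.00182 and Tnnc2 with 0.00175. The light chain Mylpf followed with 0.00136, then Tnnt1 with 0.00132, the LIM protein Csrp3 with 0.00118, the light chain Myl6b with 0.00113 and Tnni1 with 0.00104. The actins Actc1 and Acta1 had 0.000784 and 0.000633. Below them were Mybph, a myosin-binding protein, with 0.000448, Ldb3 with 0.000425, Des with 0.000403, Actn2, alpha-actinin, with 0.000354 and Synpo2l with 0.000294. The Actn2 value is the lowest of its 3 isoforms, which had a median of 0.0015 and a highest TE of 0.00165.

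Genes of the muscle membrane and of excitation-contraction coupling had the lowest values, with a median of 0.000345 and 1 of 7 above. That 1 was Cav3, muscle caveolin, with 0.000985. The calcium channel subunits Cacna1s and Cacnb1 had 0.000163 and 0.000431, the calcium pump Atp2a1 0.000295, the junctional protein Jph2 0.000345, the cadherin Cdh15 0.000337 and the receptor subunit Chrng 0.00068. The Chrng value is the lowest of its 4 isoforms, which had a median of 0.00184 and a highest TE of 0.00252. That isoform held 5300 of their coverage of 5460. After correction for both UTR lengths the list stood 1.10 below all named genes on the log2 scale, against 1.18 before. The length of the coding region was not used here, and its part in these differences was not tested.

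Glycolysis and creatine metabolism had a median of 0.00066, with 2 of 11 above, Eno1 with 0.00129 and Tpi1 with 0.000848. Aldoa, Pkm, Eno3, the muscle enolase, and Ckm, muscle creatine kinase, had 0.000627, 0.0005, 0.00066 and 0.00072. Of 7 translation factors 3 lay above, Eif3c with 0.00191, Eif3k with 0.00125 and Eif3g with 0.000958, and Eef2 was lowest with 0.000258. Of 3 listed genes of myogenic transcription control, Id3 had 0.00104, Myog, which drives differentiation, 0.000584 and Mef2d 0.000489. The secreted inhibitors Timp1 and Timp2 had 0.00129 and 0.00109.

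**Figure D5:**
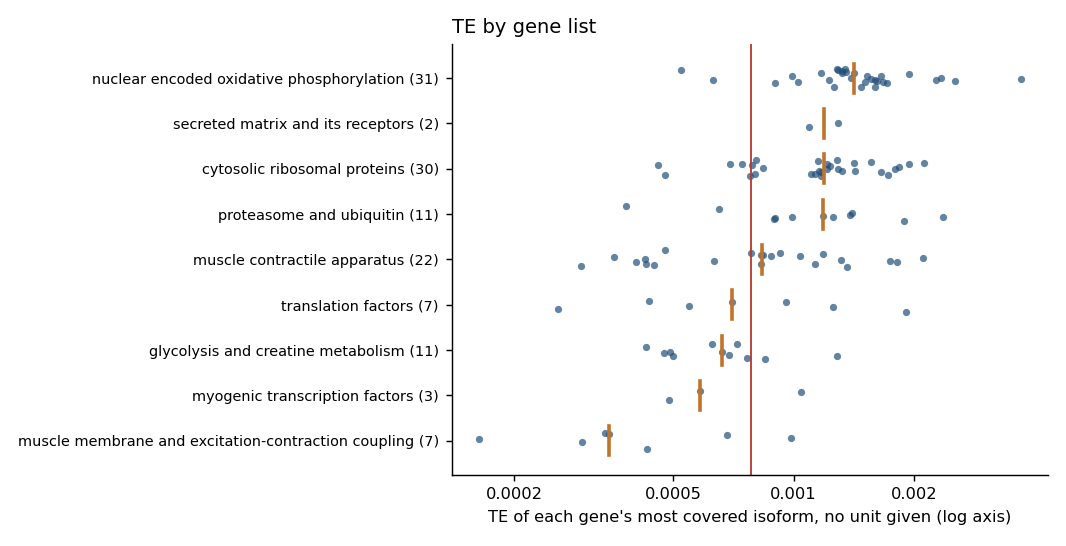
TE (horizontal log axis, no unit given) of the most covered isoform of each named gene, by gene list, with the number of genes in brackets. Orange bars are list medians, from 0.000345 for membrane and excitation-contraction coupling genes to 0.00141 for oxidative phosphorylation, and the line is the median of 1101 named genes, 0.000781.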

How the data were processed

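The authors deposited 1 polysome table with a whole-number coverage count and a TE score per isoform. Per the submitters' processing notes, the tools named were STAR 2.5.3a, UMI-tools 0.5.4, cutadapt 1.16 and bcl2fastq 2.20.0, and the build was GRCm39. No source used here says how ends were clustered or TE computed. The table lists isoforms from a coverage of 11 up, and 57 of them had a TE below 0. Values are pooled, so the groups and replicate numbers of the labels entered no fit, no test was made and no counting interval was computed.

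The members and gene lists were chosen with earlier results of these data known. Medians and quartiles were taken on TE, and differences on the log2 scale are between medians of log2 TE. Spearman's rho and variance components (within and between groups of identical ends, from mean squares) were computed on log2 TE. Python 3.11.15, pandas 2.3.3, numpy 2.4.6 and scipy 1.17.1 were used. The variance components and the slopes within groups were checked on simulated data, and the calling of upstream AUGs on made-up sequences. Corrected values are residuals of a linear fit of log2 TE on log2 leader and log2 trailer length. The fit leaves a remainder by trailer length. After it, trailers under 40 nt stood at -0.30 from all members, those above 1200 nt at -0.31 and those of 151 to 400 nt at 0.12. Folding energies are from ViennaRNA 2.7.2 on 50 bases.

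Names came from 20-base matches to 300-base RefSeq promoter windows (GRCm38.p6), and 29 isoforms matched several genes and were not named. Isoforms were named in the text by rule: the 10 most covered; the 8 highest and 8 lowest TE at a coverage of at least 300; the 5 widest and 5 narrowest ranges at that coverage and the 3 largest groups per shared end; and members of gene lists at that coverage. Cacna1s, Atp2a1, Atp5c1, Eif3c, Id3, Mef2d, Pkm and Tecr extremes lie outside it and were chosen after their values were seen. Alternatives were coverage minimums of 15 and 60, ends within 10 bases joined, groups of at least 3 isoforms, the most covered isoform of each 3′ end, the length correction and, added after seeing the data, leaving out 1 isoform.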

Additional observations from a re-analysis of the deposited data

Results flagged for a closer look

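Signal outside the isoforms with a TE was found in 2 places. Nuclear isoforms with a trailer but no leader sequence and no TE, at a coverage of at least 30, held a coverage of 19400 in 166 isoforms. The most covered was a Des isoform that starts far inside the gene, at chr1:75343886-75344357, with a coverage of 4818 and the same trailer of 663 nt as the main Des isoform. Of the 166, 103 were of the class that starts inside the annotated transcript. Mitochondrial isoforms held a coverage of 1390 in 28 isoforms, the most covered with 270 and a TE of 0.000167. There are no control samples, and neither signal was compared between fractions.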

How the results depend on the processing

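No paired analysis was possible because all values are pooled over both mice, and for the same reason no replicate could be left out. Of 121 values of 37 results under the alternatives, 104 moved by less than 1.25-fold or, for log2 differences and rho, by less than 0.1. The share of variance within shared ends (other coverage minimums, groups of at least 3), the median TE (other coverage minimums, 1 isoform per 3′ end), the coverage classes (1 isoform per 3′ end) and the gene lists (a coverage minimum of 60) were among these. The 104 include 6 values with ends within 10 bases joined. These were identical to the main ones, so they say nothing about stability. The length correction is not counted for these results, and it moved some of them: variance within shared 5′ ends went from 37.0 to 20.4%, ribosomal proteins from 0.61 to 0.024 and oxidative phosphorylation from 0.86 to 0.43 on the log2 scale. The median range within shared 3′ ends was 1.87 in groups of at least 3 isoforms. The log2 difference between the longest and shortest span class was -1.24 with the most covered isoform of each 3′ end and -0.46 after the length correction, where rho was -0.135. Relative to leaders without upstream AUGs, the correction gave -0.21 for closed and -0.11 for open out-of-frame ones. In-frame open ones were at -0.20 in the main setting and -0.14 after the correction. They were at -0.051 with a coverage minimum of 60 and -0.0077 with 1 isoform per 3′ end. For trailers the corrected rho was -0.0602 for A and -0.0741 for G. Relative to annotated isoforms, the correction gave -0.045 for shortened 3′ ends (-0.0042 with a coverage minimum of 60), -0.27 for those new at both ends and, with the sign reversed, 0.032 for extended 3′ ends, which were at -0.024 with a coverage minimum of 60. Extended 5′ ends were at 0.15 with 1 isoform per 3′ end. The median log2 difference of isoforms under 50 bases apart was 0.31 with shared 3′ ends at a coverage minimum of 15, and 0.22 with shared 5′ ends at a minimum of 60. The causes were not tested.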
